A study of Mus musculus with 8 samples.

Results

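The Rtl1 antisense miRNAs described here are the guide strands cut from 5 hairpins (miR-431, miR-433, miR-127, miR-434 and miR-136) on the strand opposite to the imprinted gene Rtl1. Members were taken by name, both arms of each hairpin, which gave 10 of the 895 miRNA names in the table of Argonaute-bound small RNAs and 986 of its 47204 read sequences. The hairpins were chosen by their place in the genome, but the group was selected on the CPM of miR-136-5p, whose difference between the genotypes was known, so that difference is described with no test.

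The small RNAs were isolated from brain (cortex and hippocampus combined) of female mice, whose age is given as 6 months for this comparison and as 6 or 8 months in the methods, on a mixed C57BL/6J/SJL background. All mice carried the 5XFAD transgenes, which drive mutant human amyloid precursor protein and presenilin 1 from a neuronal promoter and model the amyloid deposition of Alzheimer's disease. The 4 control mice had 1 intact copy of Rubicon, a gene that restrains autophagy (5XFADtg Rubicon+/-, het), and the 4 others had none (5XFADtg Rubicon-/-, ko). Argonaute complexes (the RNA-induced silencing complex, RISC) were captured with a GW182 peptide on beads before sequencing, so a level is a share of RISC-bound small RNAs (R-sRNAs) in a mixed tissue, in which fewer cells of a type and less of a miRNA per cell cannot be told apart. No wild type Rubicon and no 5XFAD-negative brain was among these samples.

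Rtl1 is a gene of retrotransposon origin in the imprinted Dlk1-Dio3 region. The protein-coding Rtl1 mRNA is made from the paternal chromosome, and the noncoding transcript that runs the other way is made from the maternal one. As the hairpins are cut from the antisense strand, their mature miRNAs are fully complementary to Rtl1 mRNA and are known to direct its cleavage. The same region holds the maternally expressed noncoding RNAs Meg3, Rian and Mirg, with further miRNAs that are abundant in neurons. Each miRNA hairpin gives a 5p and a 3p arm, of which 1 is usually kept by Argonaute as guide and the other lost. The guide finds its targets with its seed, so a read that starts even 1 base earlier or later has other targets.

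The mature members, from RefSeq (GRCm38.p6, 10 of 10 matched), are shown 5′ to 3′. The seed (bases 2 to 8) is in capitals, because it carries the targets. In these data its bases 2 to 7 carry the viability score.
mmu-miR-431-5p: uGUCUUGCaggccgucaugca
mmu-miR-431-3p: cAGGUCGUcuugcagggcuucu
mmu-miR-433-5p: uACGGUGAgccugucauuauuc
mmu-miR-433-3p: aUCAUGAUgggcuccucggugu
mmu-miR-127-5p: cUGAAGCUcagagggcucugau
mmu-miR-127-3p: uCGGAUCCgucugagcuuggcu
mmu-miR-434-5p: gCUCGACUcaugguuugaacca
mmu-miR-434-3p: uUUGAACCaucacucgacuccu
mmu-miR-136-5p: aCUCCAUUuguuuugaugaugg
mmu-miR-136-3p: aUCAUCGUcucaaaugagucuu
All 10 of these seeds of bases 2 to 8 differ from each other. No other of the 1738 mouse mature miRNAs in the RefSeq table has any of them. The members thus share a transcript and not a seed.

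The position of the hairpins was checked on the annotation. Rtl1 lies at chr12:109589193-109600330 on the minus strand of GRCm38, and its coding sequence spans chr12:109590172-109595403. The 5 hairpins lie on the plus strand within this coding sequence, which is exonic, in the order Mir431 (chr12:109590447-109590537), Mir433 (chr12:109591715-109591838), Mir127 (chr12:109592846-109592915), Mir434 (chr12:109594506-109594599) and Mir136 (chr12:109595327-109595388). The annotation also places Mir432 (chr12:109594956-109595030) on the plus strand of the coding sequence, between Mir434 and Mir136, and Mir3071 on its minus strand, which were not analysed here. The mature sequences of all 10 members were exact complements of Rtl1 mRNA. Of the reads in the table, 257 sequences matched the antisense strand exactly, 202 of them under the members' names, with a mean of 24207 CPM (reads per 1000000 reads of a library) for those 202. No read sequence (0) matched Rtl1 transcripts in the sense direction, although the removal of rare sequences by the authors means that only sequences with at least 8 reads over the 8 libraries could be seen.

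The libraries held 509839 to 2634450 reads in het and 1010177 to 19878054 in ko, so that 3 reads, taken as the smallest level shown, were worth 0.151 to 5.79 CPM. No pair of libraries was identical. Brain miRNAs led the libraries, with mean levels of 52509 CPM for neuronal miR-124-3p, 57047 CPM for miR-9-5p and 68599 CPM for miR-128-3p, while liver miR-122-5p was at 15.1 CPM and muscle miR-1a-3p at 125 CPM. Erythroid miR-451a ranged from 531 to 1912 CPM, and the myeloid and immune miR-142a-5p and miR-223-3p had means of 140.4 and 56.9 CPM.

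As a group the members supplied 2.87% ± 0.564 (SD, n = 8) of a library. The sum of the 10 was 23503, 35234, 25481 and 31521 CPM in het libraries 1 to 4 and 29209, 26836, 37171 and 21020.4 CPM in ko libraries 1 to 4. Both the highest and the lowest sum belonged to ko, and the means were 28935 ± 5410.0 CPM in het and 28559 ± 6693 CPM in ko (SD, n = 4 each). Levels of single members spanned from 60.6 CPM for miR-433-5p to 15113 CPM for miR-127-3p on average. In order of mean level, miR-127-3p ranked 13 among the 895 names, miR-434-3p ranked 38, miR-136-5p 67, miR-136-3p 68, miR-433-3p 70, miR-434-5p 136, miR-127-5p 149, miR-431-5p 215, miR-431-3p 299 and miR-433-5p 325. The ranges of miR-136-5p, miR-136-3p and miR-433-3p overlapped, as did those of miR-434-5p and miR-127-5p and those of miR-431-3p and miR-433-5p, so the order within these neighbours was not beyond their spread. Owing to its wide spread miR-136-5p also overlapped miR-434-3p, miR-434-5p and miR-127-5p.

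**Figure D1:**
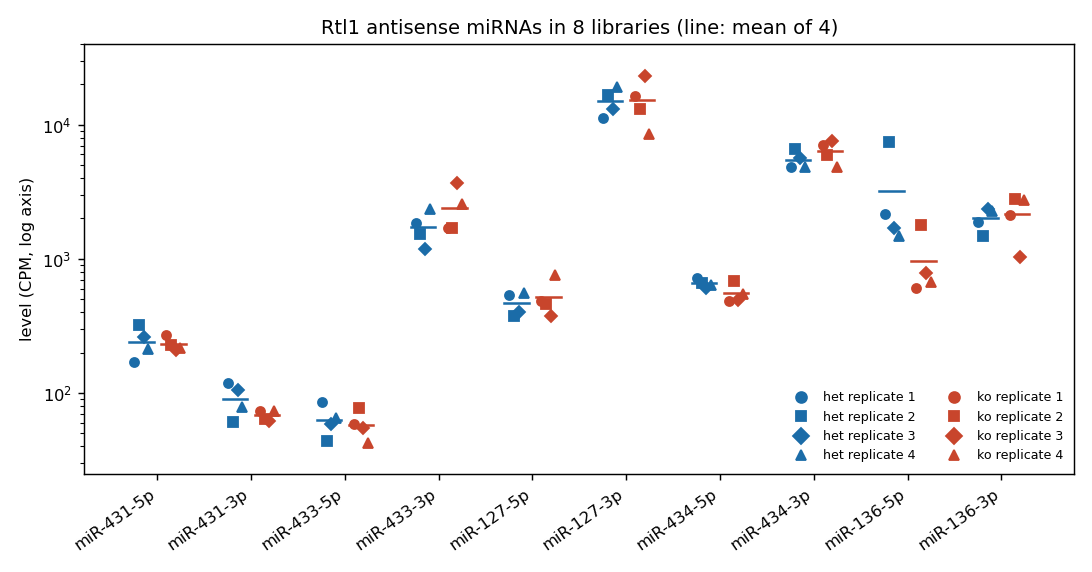
Level of each member (CPM, log axis) in the 4 het (blue) and 4 ko (red) libraries, with a horizontal line at each group mean and members in their order along the locus. All 10 members overlap between genotypes, and miR-136-5p spans from 606 to 7484 CPM with replicate 2 on top in both genotypes.

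miR-127-3p was the leading guide of the group and made up 40.8% to 61.8% of its reads. It stood at 11132, 16682, 13121 and 18983 CPM in het and at 16351, 13105, 22962 and 8567 CPM in ko libraries 1 to 4. The ko libraries held both its highest and its lowest level, and the fitted difference was a log2 fold change (ko minus het) of -0.03 (SE 0.30, adjusted p = 0.995 in limma). Its partner strand miR-127-5p was far scarcer, at 535, 373, 405 and 555 CPM in het and 482, 459, 372 and 753 CPM in ko. The ko 4 library, lowest of all for the 3p arm, was highest for the 5p arm.

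miR-434-3p came next, at 4826, 6586, 5672 and 4869 CPM in het and 7053, 5942, 7546 and 4828 CPM in ko. Its ranges lay almost on top of each other at the lower end, and the log2 fold change was 0.20 (SE 0.24, adjusted p = 0.975 in limma). This value ran from 0.11 to 0.32 when 1 library was left out and up to 0.42 over all alternatives. miR-434-5p was the steadiest member, with a coefficient of variation (CV) of 14.8% over the 8 libraries. It was at 720.1, 659.6, 606 and 644 CPM in het and 482, 688, 491 and 548 CPM in ko, where ko 2 alone stood inside the het range.

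miR-433-3p, the other mainly 3p guide, had 1853, 1534, 1182 and 2362 CPM in het and 1710, 1688, 3648 and 2579 CPM in ko. The 2 highest libraries were ko, yet the others were mixed with het, and its log2 fold change of 0.44 (SE 0.32, adjusted p = 0.837 in limma) was the largest among the 9 members tested. This value moved from 0.22 without ko 3 and 0.28 without het 3 to 0.87 without ko 1 and ko 2, the libraries over 5000000 reads (adjusted p = 0.383 in limma). Its partner miR-433-5p ranged from 42.1 to 84.9 CPM. miR-431-5p, which is known to repress the Wnt co-receptor antagonist Kremen1 in neurons, was present at 169.9, 320.5, 261 and 211 CPM in het and at 272, 227, 210.1 and 216 CPM in ko. The ko libraries sat inside the het range, and miR-431-3p, at 60.5 to 118 CPM, was also shared by both genotypes.

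miR-136-5p had the widest spread of the group. It was at 2170, 7484, 1712 and 1489 CPM in het and 606, 1803, 789.7 and 670.2 CPM in ko libraries 1 to 4. Only ko 2 reached into the het range, and 3 of the 4 ko libraries lay under every het library. Within each genotype replicate 2 stood above the other 3 libraries, in which the het values lay between 1489 and 2170 CPM and the ko values between 606 and 789.7 CPM. The log2 fold change was -1.54 (SE 0.49), given as a description. It was -1.02 without het replicate 2 and -1.37 without the replicate 2 libraries of both genotypes.

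miR-136-3p, cut from the same hairpin, did not follow. It stood at 1894, 1490, 2359 and 2265 CPM in het and 2122, 2783, 1035 and 2743 CPM in ko, with het 2 second from the bottom and ko 2 on top. Its log2 fold change was 0.04 (SE 0.33, adjusted p = 0.995 in limma). The CV over the 8 libraries was 108% for miR-136-5p, a 12.4-fold range, and between 14.8% and 37.6% for the other 9 members. Over the 463 miRNAs that averaged 10 CPM or more the median CV was 34.2%, and 9 of them had a higher CV than miR-136-5p. These values rest on het 2. Over the 7 libraries without it, a set chosen after the values were seen, the CV of miR-136-5p was 47.4% with a 3.58-fold range, the median CV was 33.2%, and 100 of the 463 had a higher CV.

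The genotype difference was tested for the 9 members other than miR-136-5p. limma called 0 of them at an adjusted p under 0.05, against 1.30% of all 463 miRNAs tested (6, all lower in ko). None (0) of the 9 had an unadjusted p under 0.05, where 7.34% of all tested miRNAs did, and edgeR and DESeq2 on the recovered reads also called 0, with 0 and 1 at an unadjusted p under 0.05. Their adjusted p-values in limma lay between 0.837 and 0.995. The CPM of het and ko overlapped for all 10 members, miR-136-5p included, while they did not overlap for 3.46% of all tested miRNAs. The median log2 fold change of the 10 members was -0.03 and that of all tested miRNAs was -0.09. The median of the log2 levels was 0.22 lower in ko than in het libraries (7.31 and 7.53), and centring each library on it shifts every fold change up by this amount, which turned the sign of the differences of miR-431-5p (0.20), miR-433-5p (0.11) and miR-127-3p (0.19). edgeR and DESeq2 turned the same 3 signs, so no direction is given for these members.

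The arms of each hairpin come from 1 precursor, and their ratio shows which strand Argonaute held without reference to the amount of transcript. In 3 hairpins the 3p arm led throughout. It exceeded the 5p arm 11.4 to 61.7-fold in miR-127, 20.03 to 66.3-fold in miR-433 and 6.70 to 15.4-fold in miR-434. The miR-431 hairpin was the opposite, with 1.44 to 5.30 times more 5p than 3p in every library. Arm choice was thus not shared along the cluster.

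miR-136 was the only one of the 5 hairpins in which the leading arm changed from library to library. Its ratio of 5p to 3p was 1.15, 5.02, 0.726 and 0.657 in het and 0.286, 0.648, 0.763 and 0.244 in ko libraries 1 to 4. The 5p arm was ahead in het 1 and het 2, and the 3p arm in the other 6. The SD of its log2 ratio over the libraries was larger in 5 of the 138 hairpins in which both arms averaged 10 CPM or more, whose median SD was 0.64. Without het 2 its SD was 0.80, that of 36 hairpins was larger, and the median SD was 0.61. As a description, the mean log2 ratio was 0.36 in het and -1.21 in ko, a difference of -1.58 (SE 0.64). The difference was -0.92 without het 2, and lay between -1.90 and -1.30 when any other library was left out.

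For the other 4 hairpins the ratio was tested in limma with all 138. Their differences on the log2 scale (ko minus het) were 0.34 (SE 0.41) for miR-431, -0.55 (SE 0.43) for miR-433, 0.15 (SE 0.48) for miR-127 and -0.46 (SE 0.36) for miR-434. The test called 0 of the 4 hairpins (adjusted p 0.792 to 0.945, 0 at an unadjusted p under 0.05), and 0% of all 138, of which 5.80% had an unadjusted p under 0.05. No second tool was run on ratios. The difference of miR-431 was 0.051 without het 1 and 0.67 without het 2, and that of miR-433 was -0.84 without ko 2, -0.31 without ko 3 and -0.35 without ko 4. For miR-127 it ran from -0.29 without ko 4 to 0.52 without ko 3.

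**Figure D2:**
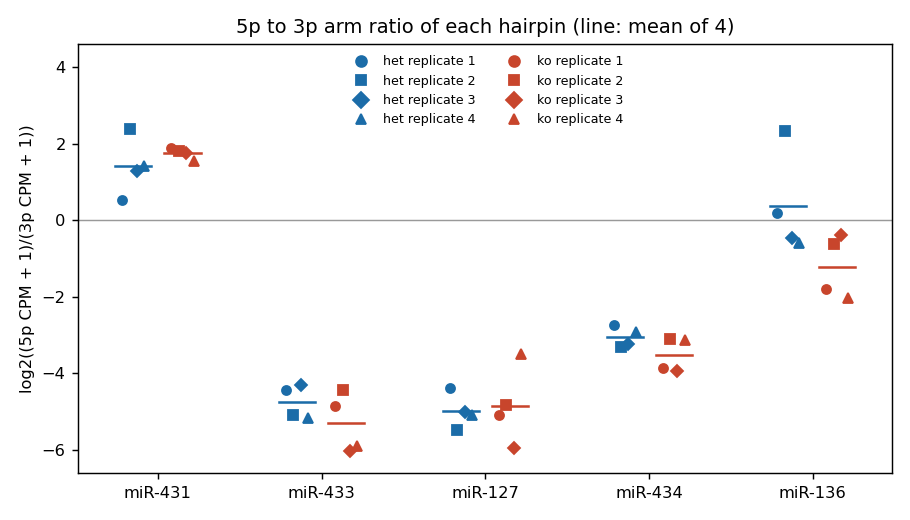
log2 ratio of the 5p to the 3p arm of the 5 hairpins in each het (blue) and ko (red) library, with lines at the group means and a grey line where both arms are equal. miR-431 lies above the line and miR-433, miR-127 and miR-434 below it in all 8 libraries, whereas miR-136 lies on both sides.

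The reads of miR-136-5p were then separated by their ends to see which of them carried the differences. The main read was the annotated one, and the next 3 shared its start and differed in length. They are shown with a read that starts 2 bases earlier, since a different start gives a different seed (in capitals).
miR-136-5p, 22 nt: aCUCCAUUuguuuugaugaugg
miR-136-5p, 23 nt: aCUCCAUUuguuuugaugaugga
miR-136-5p, 21 nt: aCUCCAUUuguuuugaugaug
miR-136-5p, 24 nt: aCUCCAUUuguuuugaugauggaa
miR-136-5p, start at -2: gGACUCCAuuuguuuugaugau
The 24 nt read ends in a base that the hairpin does not encode, and the 23 nt read is encoded throughout.

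The main 22 nt read was at 1097, 3702, 1005 and 585 CPM in het and 307, 833, 443 and 205 CPM in ko libraries 1 to 4. For the 23 nt read the values were 207, 2189, 228 and 167 CPM in het and 62.2, 309.8, 51.1 and 42.1 CPM in ko. Thus het 2 exceeded the next het library 3.38-fold in the first and 9.62-fold in the second, and ko 2 the next ko library 1.88-fold and 4.98-fold. The 21 nt read was 1.41-fold above the next het library in het 2 and 3.17-fold above the next ko library in ko 2. The 24 nt read was 2.51-fold above the next library in het 2 but at 0.400 times the next library in ko 2. For the 20 nt read the ratios were 0.961 in het 2 and 0.687 in ko 2, and for the read starting at -2 they were 0.974 and 1.80. The excess of het 2 was thus unequal among reads of the same miRNA and lay in the reads that begin at the annotated start and run to at least the next to last annotated base.

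Over the 8 read sequences of miR-136-5p that averaged 10 CPM or more, het 2 was the highest het library in 4 and ko 2 the highest ko library in 6. The mean of ko was lower than that of het in 8 of 8, from 0.167 times het (the 23 nt read) to 0.675 times (the read starting at -2). These are values of the same contrast that was known for miR-136-5p and describe how it was distributed over its reads.

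**Figure D3:**
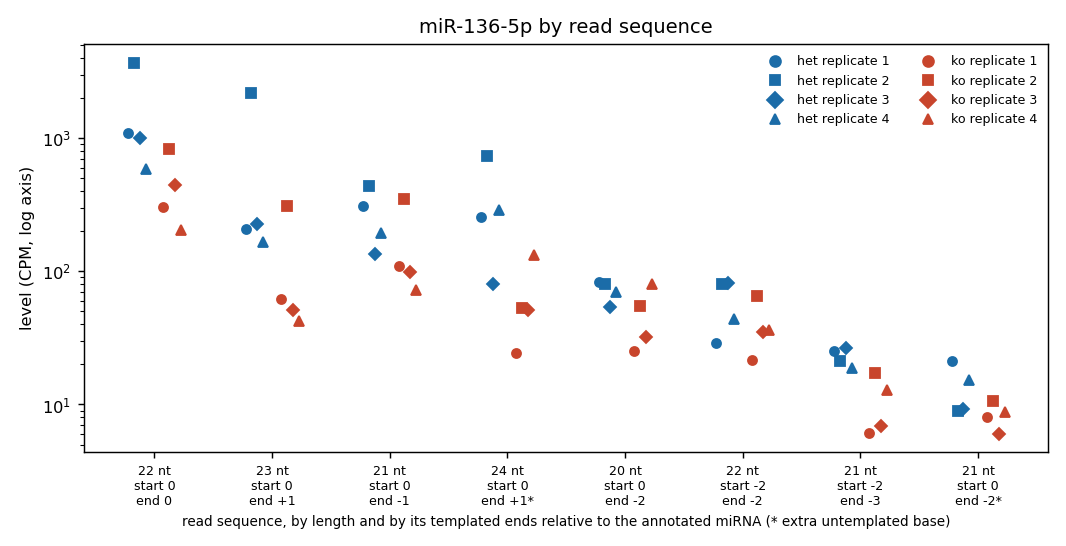
Level (CPM, log axis) of the 8 miR-136-5p read sequences that averaged 10 CPM or more, named by length and by the position of their ends relative to the annotated miRNA, in het (blue) and ko (red) libraries. Squares (replicate 2) stand apart for the 22 and 23 nt reads, at 3702 and 2189 CPM in het, whereas in het they lie at or under the highest other library for the 20 nt read and the reads that start at -2.

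Among 270 other miRNAs that averaged 100 CPM or more, those whose deviations from the genotype means were most like those of miR-136-5p over the 8 libraries were miR-144-3p (Pearson r = 0.92, Spearman rho = 0.67), miR-148a-3p (r = 0.88, rho = 0.60), miR-24-2-5p (r = 0.86, rho = 0.60), miR-34c-5p (r = 0.85, rho = 0.81) and miR-24-1-5p (r = 0.84, rho = 0.26). These points share library and depth, the names were selected for the likeness, and so no test is given. miR-144-3p, an erythroid miRNA, was at 509.7, 1214, 236 and 410.0 CPM in het and 170.4, 621, 183 and 158 CPM in ko, with replicate 2 on top in both genotypes. Without the replicate 2 libraries the r fell to 0.34 for miR-144-3p, 0.12 for miR-148a-3p, 0.27 for miR-24-2-5p, 0.53 for miR-34c-5p and -0.55 for miR-24-1-5p. The members were left out of this search, and none of the 5 belongs to the Dlk1-Dio3 region. Of the blood and immune markers, miR-451a, which shares a hairpin cluster with miR-144, was at 1214, 1912, 1711 and 1679.7 CPM in het and 531, 1599.6, 580.5 and 1239 CPM in ko, also with replicate 2 highest in each genotype. In contrast miR-223-3p was lowest of all in het 2, at 22.7 CPM, and miR-142a-5p in het 2, at 131 CPM, lay within the range of the other libraries (104 to 182 CPM). The part of blood RNA in the level of miR-136-5p was not tested.

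As the 10 members come from 1 antisense transcript, the next question was whether they rose and fell together. Of the 45 pairs, 21 had a positive Pearson r of log2(CPM + 1) over the 8 libraries, that is 46.7%, where 53.9% of the pairs of all tested miRNAs did. The median r was -0.06 in the members and 0.05 in all tested pairs. After the genotype means were removed the medians were -0.13 and 0.04. When each library was centred on its median, 25 pairs were positive and the median of the members turned to 0.10, with 0.05 in all tested pairs, so no direction is given for the group. The pairs with miR-136-5p were not tested. None (0) of the 36 other pairs passed an exact permutation test after Benjamini-Hochberg adjustment over them, with smallest adjusted p-values of 0.538 for Pearson and 0.616 for Spearman correlations. Unadjusted, 1 pair for Pearson and 2 for Spearman had a p under 0.05. Of all 106953 pairs of tested miRNAs 9.02% for Pearson and 7.65% for Spearman had such a p in the same test.

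Without centring, the arms of 1 hairpin did not rise together either. Their Pearson r was -0.46 for miR-431, -0.18 for miR-433, -0.69 for miR-127, -0.58 for miR-434 and -0.16 for miR-136. When the libraries were centred on their medians, r was 0.10, -0.13, -0.45, -0.04 and -0.19 in the same order. The lowest unadjusted p of the 4 hairpins tested was that of miR-127 (exact permutation p = 0.0559 over 8 libraries, adjusted p = 0.538, Spearman rho = -0.57, exact permutation p = 0.151). When the 2 libraries farthest from the median of the 5p arm were left out, r became 0.51, 0.02, -0.0050, 0.22 and 0.29 in the same order, a step that also narrows the range of the 5p arm. Without both replicate 2 libraries r was -0.28, -0.32, -0.71, -0.81 and 0.11. Among the 4 hairpins other than miR-136 none passed the adjusted test in any of these sets. In the sets of 6 libraries the adjusted p of a single pair could not fall under 0.05, so they decide nothing about the arms. The most negative pair was miR-127-5p and miR-434-3p, with r = -0.75 (exact permutation p = 0.0289, adjusted p = 0.538) and rho = -0.76 (exact permutation p = 0.0368, adjusted p = 0.616). The r of this pair was -0.93 after removal of the genotype means (adjusted exact permutation p = 0.25), -0.84 without the libraries over 5000000 reads, -0.73 without both replicate 2 libraries, -0.63 without the 2 farthest libraries and 0.02 when the libraries were centred on their medians. The most positive pair, miR-434-5p and miR-136-5p (r = 0.74, rho = 0.88), includes the genotype difference of miR-136-5p and is a description. Its r was 0.92 without both replicate 2 libraries, 0.70 without the libraries over 5000000 reads, 0.58 without the 2 farthest libraries, 0.54 after removal of the genotype means and 0.29 when the libraries were centred.

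**Figure D4:**
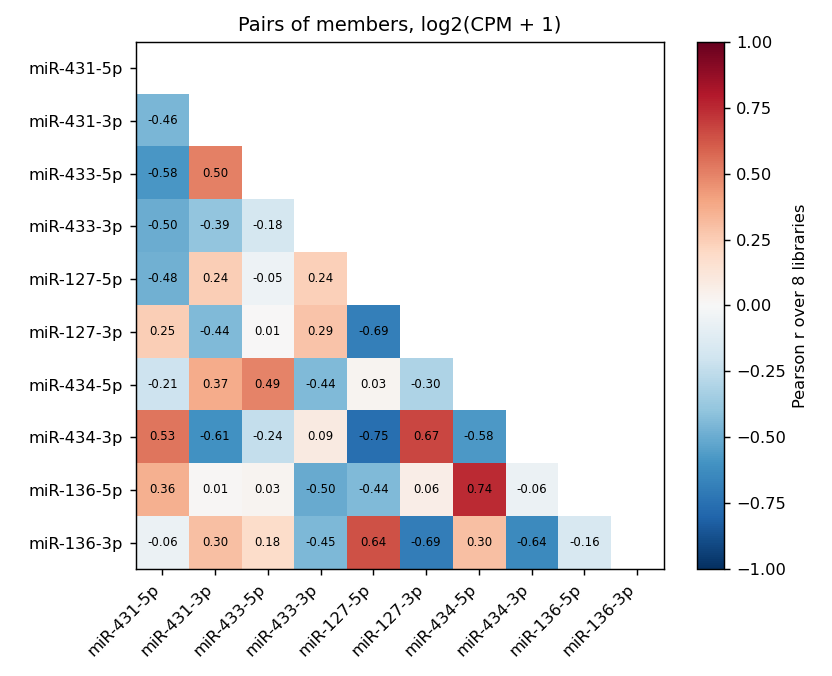
Pearson r of log2(CPM + 1) over 8 libraries for the 45 pairs of members, from blue (negative) to red (positive). Positive and negative pairs are mixed, from -0.75 to 0.74, and the 5 pairs of arms of 1 hairpin are all negative in these uncentred levels.

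The seeds of the members decide their place on the scale of 6mer seed viability, the mean percent viability of 3 mouse cell lines given an siRNA with that seed (positions 2 to 7) in an earlier screen. Low values mark seeds that are toxic through Death Induced by Survival gene Elimination (DISE). Among the main seeds, miR-127-5p (UGAAGC) was lowest at 16.2, followed by miR-127-3p (CGGAUC) at 33.9 and miR-431-5p (GUCUUG) at 49.7. miR-431-3p was at 65.8, miR-434-5p at 70.8, miR-433-5p at 71.2 and miR-136-5p at 71.4. The least toxic were miR-433-3p at 79.4, miR-136-3p at 83.4 and miR-434-3p at 85.6. The group therefore joined some of the lower and some of the higher scores on 1 transcript, in a table that ran from 3.3 to 108.5.

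Weighted by reads, the seed viability of the group was 53.6 ± 2.17, compared with 56.4 ± 0.775 for all reads (SD, n = 8). Seeds under a viability of 40 made up 54.9% ± 5.47 of the group's reads and 12.7% ± 1.44 of all reads. In turn the group supplied 9.76% to 16.3% of all reads with a seed under 40, of which miR-127-3p alone gave 7.90% to 15.7%. CGGAUC ranked between 1 and 4 among such seeds by library, with 7.86% to 15.7% of their reads, where AGCAGC, the seed of miR-16-5p, had 10.3% to 17.0%. The share of such reads that came from the group was 9.76%, 11.9%, 11.3% and 14.8% in het and 15.9%, 10.8%, 16.3% and 9.98% in ko libraries 1 to 4. The genotypes overlapped, with ko libraries both high and low.

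**Figure D5:**
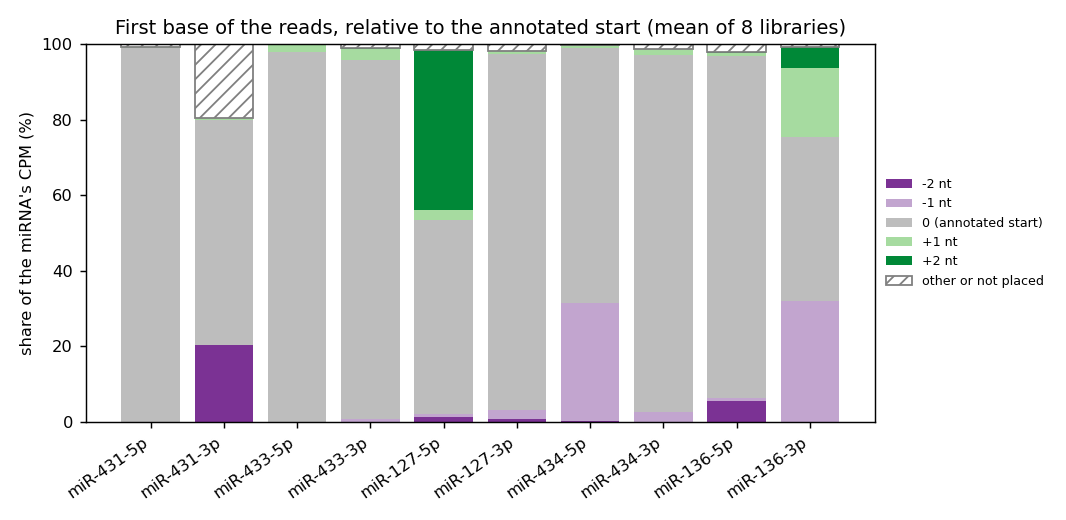
Share of each member's CPM (%) by the first base of the read relative to the annotated start, mean of 8 libraries, with reads that start elsewhere or could not be placed hatched. miR-127-5p, miR-136-3p, miR-434-5p and miR-431-3p have more than 1 common start, and the other 6 begin mostly at the annotated base.

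Some members were bound with more than 1 start, and in miR-136-3p, miR-127-5p and miR-431-3p the scores of these isoforms lay far apart. The common shifted reads of the 4 members concerned follow each main read, with bases 2 to 8 in capitals.
miR-136-3p, start at 0: aUCAUCGUcucaaaugagucu
miR-136-3p, start at -1: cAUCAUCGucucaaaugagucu
miR-127-5p, start at 0: cUGAAGCUcagagggcucugauu
miR-127-5p, start at +2: gAAGCUCAgagggcucugauu
miR-431-3p, start at 0: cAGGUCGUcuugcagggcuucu
miR-431-3p, start at -2: uGCAGGUCgucuugcagggcuuc
miR-434-5p, start at 0: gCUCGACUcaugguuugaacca
miR-434-5p, start at -1: aGCUCGACucaugguuugaacc
In miR-136-3p the nontoxic UCAUCG (viability 83.4) held 43.4% ± 7.12 of the reads (SD, n = 8). AUCAUC (start at -1, viability 37.3) held 32.0% ± 5.21, and CAUCGU (start at +1, viability 30.2) held 18.5% ± 4.98. A shift by 1 base in either direction thus went along with a seed score lower by more than 40.

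miR-127-5p was divided between the toxic UGAAGC (viability 16.2) with 51.4% ± 11.5 and AAGCUC (start at +2, viability 54.6) with 42.4% ± 11.1. The share of AAGCUC was 30.0%, 56.4%, 48.7% and 38.1% in het and 41.3%, 37.3%, 58.5% and 29.4% in ko libraries 1 to 4. It was above that of UGAAGC in het 2, het 3 and ko 3, in which the 95% Wilson intervals of the 2 shares do not overlap, for example 52.2% to 60.5% and 31.6% to 39.7% in het 2. These intervals cover counting error only. miR-431-3p gave 59.6% AGGUCG (viability 65.8), 20.3% GCAGGU (20.3) and 19.6% UGCAGG (37.5), on 61 to 1280 reads a library. In miR-434-5p the second seed, GCUCGA with 31.4%, had nearly the same score (74.8) as the main seed (70.8).

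The share of reads with a seed other than the main one was 56.6% ± 7.12 for miR-136-3p, 48.6% ± 11.5 for miR-127-5p, 40.4% ± 8.38 for miR-431-3p and 32.5% ± 3.89 for miR-434-5p (SD, n = 8). Over the 463 tested miRNAs the median was 3.34%, and 99.6% of them had a lower share than miR-136-3p. The other arms of the same hairpins had lower shares, with 9.22% ± 3.23 for miR-136-5p, 5.45% ± 0.368 for miR-127-3p, 0.969% ± 0.620 for miR-431-5p and 5.18% ± 0.798 for miR-434-3p. In miR-136-5p the read that starts at -2 has the seed GACUCC, whose viability of 3.7 was undercut by 2 of the 3427 seeds of the table. It accounted for 5.56% ± 2.46 of miR-136-5p. The share of shifted reads of miR-136-5p was 7.47%, 3.49%, 9.98% and 7.56% in het and 9.97%, 9.24%, 11.6% and 14.5% in ko, lowest in het 2 and highest in ko 4, with overlap between 9.24% and 9.98%.

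Whether the shifted share differed by genotype was tested in limma for the 278 miRNAs that averaged 100 CPM or more, which included 7 members besides miR-136-5p. The test called 0 of the 7, and 0% of the 278, with 0 and 6.12% at an unadjusted p under 0.05. The smallest p was that of miR-433-3p, with shifted shares of 4.396% ± 0.471 in het and 5.48% ± 0.453 in ko (SD, n = 4 each, log2 difference of the shifted to the main seed 0.33, SE 0.16, adjusted p = 0.807 in limma). miR-431-3p and miR-433-5p were under 100 CPM and did not enter.

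At the 3′ end the members also differed. miR-127-3p was most often cut 2 bases short, the 20 nt read taking 31.4% of its CPM and the annotated 22 nt read 24.2%.
miR-127-3p, 20 nt: uCGGAUCCgucugagcuugg
miR-127-3p, 22 nt: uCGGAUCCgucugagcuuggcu
In addition 22.1% ± 2.15 of its CPM came from reads whose last 1 to 3 bases did not match the hairpin (SD, n = 8). In miR-434-3p 97.1% ± 0.315 of the CPM matched exactly and 1.73% ± 0.192 carried such an end. For miR-136-5p the share with such an end was 13.0% ± 8.30, from 4.90% to 27.0%, and nearly all of these ended in A alone (12.5% ± 8.17). Errors of sequencing and single-base differences near the end count as such ends too.

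The remaining miRNAs of the imprinted Dlk1-Dio3 region were used to see whether the neighbours differed. Of 87 such names, 65 reached the mean of 10 CPM needed for the test. Their fold changes were above 0 in 23 and below 0 in 42, with a median log2 fold change of -0.12. Over all tested miRNAs the counts were 188 and 275, with a median of -0.09. limma called 0 of the 65, with 1 at an unadjusted p under 0.05. This was miR-377-3p (554 ± 179.7 CPM in het, 309 ± 197 CPM in ko, log2 fold change -1.11, SE 0.49, adjusted p = 0.593). The next lowest p-values among those lower in ko were those of miR-381-5p (log2 fold change -0.96, SE 0.44) and miR-376b-5p (-0.61, SE 0.28), both with an adjusted p of 0.613 in limma. On the higher side they were miR-412-5p (0.72, SE 0.38, adjusted p = 0.696 in limma), miR-134-3p (0.72, SE 0.47, adjusted p = 0.796) and miR-673-5p (0.31, SE 0.31, adjusted p = 0.975). The miRNAs around Mirg, the largest part of the region, summed to 31295, 37386, 30917 and 31262 CPM in het and 30402, 31680.4, 30379 and 32885 CPM in ko libraries 1 to 4. In this sum het 2 was highest, and the other 7 libraries lay between 30379 and 32885 CPM. The miRNAs on the Meg3 side of Rtl1 were highest in ko 3 (2363 CPM, with 1897 CPM in het 2). Those around Rian were highest in het 4 (844 CPM, with 789.6 CPM in het 2).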

How the data were processed

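Small RNAs bound to Argonaute were sequenced from 8 brain samples, 4 het and 4 ko, and the groups were taken from the sample titles. The authors trimmed the reads (Trim Galore per the labels), removed rare and artificial sequences and annotated the rest with their SPOROS pipeline. The deposited values are CPM of each read sequence. The deposited viability score is the authors' mean over 3 mouse cell lines and was not measured in these mice. Genome build and tool versions of the table are not given in the sources used here. Rare sequences were removed on the total over libraries, so those seen only in shallow libraries were lost more easily, and each CPM is relative to the rest of its library.

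All CPM values were whole multiples of the worth of 1 read (100.0% within 0.0006 CPM), which gave the depths. CPM were summed by miRNA name, with 121 sequences that carry more than 1 name kept apart under their joint names. The test for miRNAs that averaged 10 CPM or more was limma 3.58.1 (R 4.3.3, trended prior, robust) applied to log2(CPM + 1) without covariates, with Benjamini-Hochberg adjustment over all tested miRNAs, so fold changes of low miRNAs are understated. Arm ratios and shifted shares were tested in the same way as log2 ratios with 1 CPM added. Correlations were tested over all pairings of the 8 libraries, except those of miR-136-5p. edgeR 4.0.16 and DESeq2 1.42.0 were alternatives on the recovered reads. The fits were tested on simulated data. Python 3.11.15, numpy 2.4.6, scipy 1.17.1, pandas 2.3.3 and matplotlib 3.10.9 were used. Reads carry no molecular identifiers.

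The members and the lists were chosen with earlier results of these data known. All 10 members were named, with the 5 miRNAs most like miR-136-5p, the 3 miRNAs of the region with the smallest p in each direction, and markers of cell types. The miRNAs of the region were listed from general knowledge of the locus, and miR-1197 was moved from Rian to Mirg after its position was checked. Other pseudocounts, filters and scalings, the replicate number as a block, and leaving out libraries were tried. Leaving out the replicate 2 libraries of both genotypes in the limma fits was chosen after seeing the data.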

Additional observations from a re-analysis of the deposited data

Results flagged for a closer look

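In groups of 4 libraries, a library was looked at again when its distance to the nearest other, divided by the range of the group, was above Dixon's 95% critical value for 4. This held in 2 of 50 groups formed from the levels, ratios and shares of the members, and chance marks about 1 in 20 groups. Both were levels of miR-136-5p, on which the group was selected, so they are given as a description. In het, replicate 2 was at 7484 CPM and the next library at 2170 CPM. In ko, replicate 2 was at 1803 CPM and the next library at 789.7 CPM.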

How the results depend on the processing

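The counts of calls among the members (9 for levels, 4 hairpins for arm ratios and 7 for shifted shares) were 0 under every alternative run. That of the 36 pairs was also 0, but most of its alternatives could hardly give a call. With 6 libraries, or with permutation within genotypes, the adjusted p of a single pair could not fall under 0.05. For miR-136-5p, on which the group was selected, the 19 alternatives refit the same libraries and are a description. Its log2 fold changes ran from -1.89 to -1.02. Over all miRNAs 6 calls became 4 with edgeR, 9 with DESeq2 and 4 to 9 when 1 library was left out. The replicate numbers occur in both genotypes but the mice differ. Deviations from the group means of same-numbered libraries correlated at 0.0377, 0.29, -0.18 and 0.25. The labels do not say whether libraries of the same number share a batch, and these correlations cannot decide it. With the replicate number as a block, 10 miRNAs and 2 hairpins (0 without it) were called. For hairpins the count was 0 to 1 when 1 library was left out (1 without ko replicate 4). For shifted shares it was 3 with a pseudocount of 10 and 0 to 2 with 1 library left out (2 without ko replicate 3). The cause of these shifts was not tested.

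Small differences changed sign. The log2 fold changes of miR-431-5p, miR-433-5p and miR-127-3p became 0.20, 0.11 and 0.19 after centring on library medians, 0.078, 0.029 and 0.15 with edgeR, and 0.083, 0.054 and 0.16 with DESeq2. That of miR-136-3p became -0.23 without the libraries over 5000000 reads. Without the replicate 2 libraries of both genotypes, an alternative chosen after seeing the data, miR-431-5p became 0.13, miR-127-3p 0.071 and miR-136-3p -0.25, the arm ratio of miR-127 became -0.015, and the shifted shares of miR-127-5p and miR-434-3p became 0.13 and -0.13. The shifted share of miR-434-3p was -0.00062 with a pseudocount of 10, and that of miR-434-5p -0.044 without the libraries over 5000000 reads. When 1 library was left out, fold changes ran from -0.18 to 0.12 for miR-431-5p, -0.27 to 0.043 for miR-433-5p, -0.26 to 0.21 for miR-127-3p, -0.081 to 0.26 for miR-127-5p and -0.11 to 0.36 for miR-136-3p. The arm ratio of miR-127 ran from -0.29 to 0.52. Differences in shifted share ran from -0.091 to 0.0067 for miR-127-3p, -0.50 to 0.076 for miR-127-5p, -0.13 to 0.26 for miR-136-3p, -0.12 to 0.12 for miR-434-3p and -0.073 to 0.18 for miR-434-5p. Pearson r became 0.10 for the arms of miR-431 and 0.022 for miR-127-5p and miR-434-3p after centring, and 0.11 for the arms of miR-136 without both replicate 2 libraries. Without the 2 libraries farthest from the median, miR-433-3p and miR-127-5p came to r = 0.92 (0.24 in all libraries). The adjusted exact permutation p was 0.05, the lowest that a single pair could reach with 6 libraries. It is at the threshold and not under it. In the same setting r became 0.51 for the arms of miR-431, 0.015 for miR-433, 0.22 for miR-434 and 0.29 for miR-136.

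The difference of miR-433-3p kept its direction, with values from 0.22 to 0.87. In het 1, the shallowest library, miR-431-3p rested on 61 reads.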
